A study of Mus musculus with 5 samples.

Results

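BAF complexes, the mammalian relatives of yeast SWI/SNF, move and evict nucleosomes with the energy of ATP, and several of their positions can be filled by either of 2 related proteins. In dividing neural progenitors the complex is known to carry the actin-related protein BAF53A (Actl6a), the zinc finger proteins BAF45A (Phf10) and BAF45D (Dpf2) and the coactivator SS18 (Ss18). As cells leave the cell cycle and become neurons these are exchanged for BAF53B (Actl6b), BAF45B (Dpf1), BAF45C (Dpf3) and CREST (Ss18l1), an exchange known for its part in dendrite growth and the end of division. The ATPase itself is either BRG1 (Smarca4) or BRM (Smarca2). The 10 genes of this subunit exchange were chosen by name, 5 as progenitor subunits (Actl6a, Phf10, Dpf2, Ss18 and Smarca4) and 5 as neuronal subunits (Actl6b, Dpf1, Dpf3, Ss18l1 and Smarca2), out of 19897 genes that had a matched probe. All of their probes were taken, which were 7 for the progenitor and 6 for the neuronal subunits out of 26300 matched probes. Ss18, Dpf1 and Smarca4 had 2 probes each and the other members 1.

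The study followed wild type mouse embryonic stem cells, labelled male, along a protocol that turns them into spinal motor neurons with retinoic acid (RA) and, by the labels, Shh. RNA was taken from the stem cells (ES), from embryoid bodies after 8 h (Day2), 1 day (Day3) and 2 days (Day4) of RA, and from the culture labelled as motor neurons after 5 days of RA (Day7). Day4 is the motor neuron progenitor stage of the protocol. No sort of the Day7 culture is named in the labels, and its tissue label is still embryoid bodies. Each time point was measured on 1 one-colour array with 55681 mouse probes, so there is no spread between replicates, no p-value was computed, and a change of 2-fold was the fixed rule of size. Levels are log2 signals after quantile normalization, a step that gives every array the same distribution of values. Levels of different probes are not set against each other, only their changes. The 4 arrays from ES to Day4 were on 1 slide and Day7 was alone on another, so the effect of the slide and that of the last step cannot be told apart. A probe is called detected where the scanner software flagged it as well above background. The Day2 array stood apart, with 86.7% of its probes detected against 57.5% to 65.7% on the other 4.

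Marker genes were read to check the labels. From Day4 to Day7, 7 of 7 motor neuron genes with a probe rose at least 2-fold (median log2 change 5.06), among them Isl1, Chat and Slc18a3, and 9 of 10 pan-neuronal genes rose (median 5.67), while 10 of 12 cell cycle genes fell (median -1.49). Of all genes, 17.8% rose and 18.1% fell as far at that step. Mnx1 had no matched probe. Pluripotency genes fell in 6 of 8 cases from ES to Day7 (median -3.23), where 24.4% of all genes fell. Genes of the floor plate, another ventral cell type, moved at the step from Day4 to Day7, and 4 of 4 rose, Shh and Foxa2 among them (median 7.95). Of 8 glial genes, 2 rose and none fell at that step, beside 17.8% and 18.1% of all genes. Of 8 neural progenitor genes, 2 rose at that step (Nkx6-1 and Irx3) and 3 fell (Pax6 by its main probe, Olig2 and Dbx1), with a median log2 change of 0.10. Of 5 mesoderm and endoderm genes with a value there 3 fell and none rose (median -2.54). From ES to Day4 2 of 6 had risen and 1 had fallen, where 15.4% of all genes rose and 14.2% fell.

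Sequence next to the start of the genes was examined for short motifs in a RefSeq table of GRCm38.p6 that held windows from 250 bases before to 50 after the start of 9 of the 10 members. The REST element, by which the repressor REST keeps neuronal genes silent outside neurons, has a left arm TTCAGCACC and a right arm GGACAGC. The full left arm was in the windows of 0 of the 9 members and in 0.371% of all 32851 windows, counting both strands. The right arm was in 1 member, Actl6b, and in 6.56% of all windows. Next to it, on the same strand, lay the left arm without its first base, TCAGCACC, which 1.65% of windows hold. Both of these arms in order and at most 20 bases apart were found in 18 windows, or 0.0548%, and Actl6b was among them. The shortened arm, the pairing of arms and the limit of 20 bases were set after the Actl6b window had been read. Actl6b was therefore certain to be among these windows, and their share does not measure how rare its match is. The stretch lies 21 to 44 bases downstream of the start used by the table, which is inside the annotated span of the gene and not its outermost start, at chr5:137553567-137553590 on GRCm38.p6, + strand. It is shown because Actl6b has the largest change of the members from Day4 to Day7. Its capitals mark both arms, which read on the opposite strand, with 9 bases between them.

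Actl6b: GCTGTCCggccgcctcGGTGCTGA

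The neuronal E-box CAGATG was in 0 of the 9 windows and in 17.2% of all windows, and the E-box CAGCTG was in 1, that of Phf10, and in 16.3% of all. CCAAT, a motif of many promoters, was searched for after the windows had been read and was in 37.4% of all windows. It was found in those of Actl6b (3 times), Dpf1 (2 times), Dpf2 (1 time) and Dpf3 (3 times). The 120 bases that end just before the outermost annotated start are shown for a progenitor subunit and both neuronal zinc finger subunits, with CCAAT on either strand in capitals. Actl6a lies at chr3:32708426-32708545 on the + strand, Dpf1 at chr7:29303832-29303951 on the + strand and Dpf3 at chr12:83487737-83487856 on the - strand.

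Actl6a: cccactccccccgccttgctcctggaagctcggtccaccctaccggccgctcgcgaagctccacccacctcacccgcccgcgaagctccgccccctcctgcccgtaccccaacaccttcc

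Dpf1: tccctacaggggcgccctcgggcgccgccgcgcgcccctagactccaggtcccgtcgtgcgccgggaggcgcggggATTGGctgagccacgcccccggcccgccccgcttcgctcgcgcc

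Dpf3: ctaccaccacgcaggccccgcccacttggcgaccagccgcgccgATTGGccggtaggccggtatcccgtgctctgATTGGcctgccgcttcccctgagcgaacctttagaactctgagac

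The Actl6a stretch holds no CCAAT, the Dpf1 stretch 1 and the Dpf3 stretch 2. CCAAT does not divide progenitor from neuronal subunits, since the Dpf2 window holds it and the Ss18l1 and Smarca2 windows do not. All 9 windows were rich in G and C, from 55.3% in Dpf3 to 87.0% in Phf10 against a median of 52.7% over all windows. CpG dinucleotides numbered from 17 in Dpf3 to 62 in Phf10 against a median of 7. A match of letters is a description of the window and not a binding site.

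At the step from Day4 progenitors to the Day7 motor neuron culture, 4 of 5 neuronal subunits rose at least 2-fold and 0 of 5 progenitor subunits fell that far. Actl6b rose at least 42.7-fold (5.42 on the log2 scale, or at least 3.38 with normexp background correction), Dpf1 8.18-fold, Ss18l1 7.43-fold and Smarca2 3.39-fold, while Dpf3 stayed at its Day4 level. Of the 16081 genes with a value at this step, 17.8% rose and 18.1% fell as far. The progenitor subunits had a median log2 change of -0.52 and the neuronal subunits of 2.89, beside -0.12 over all genes. In a bulk culture fewer cells of a type and less RNA per cell cannot be told apart, and the same holds for more cells and more RNA.

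**Figure D1:**
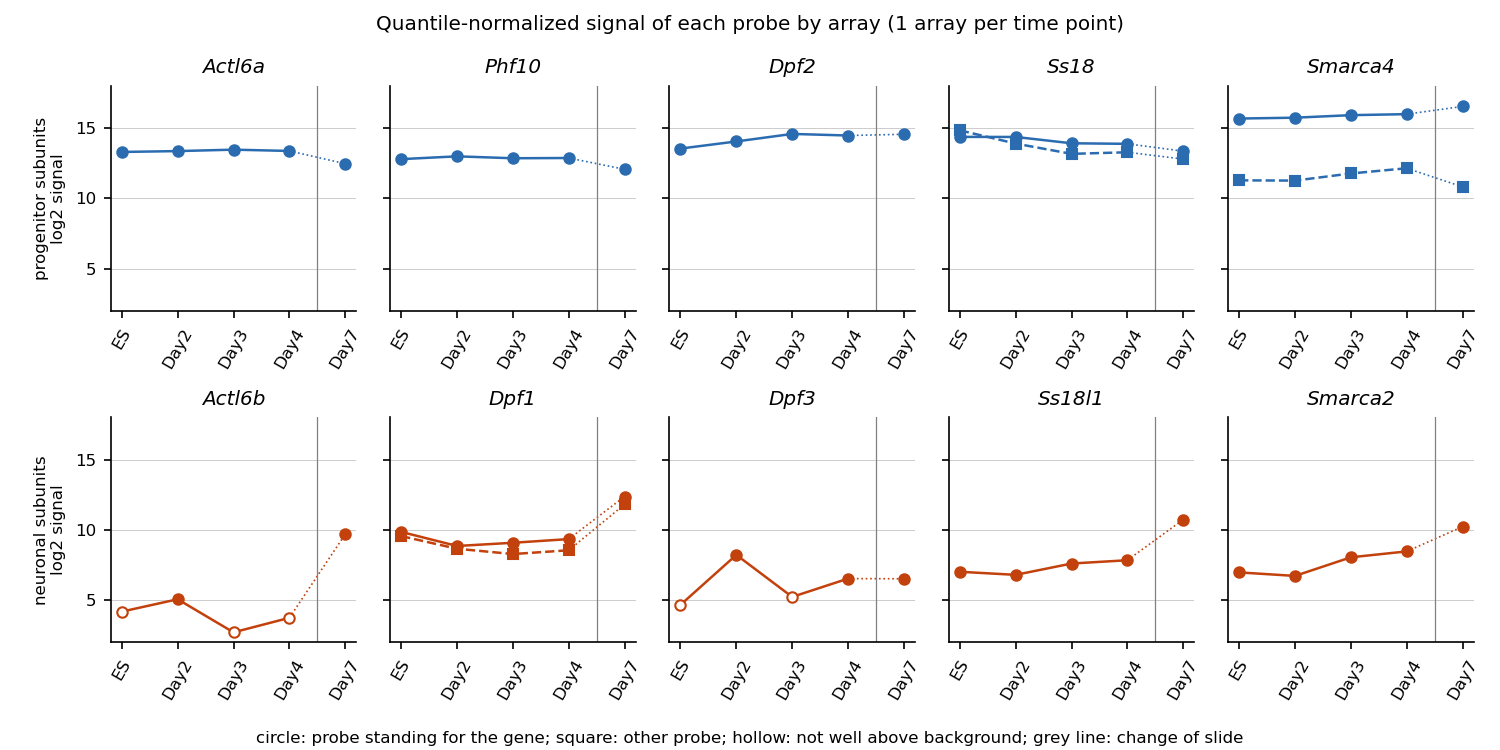
Log2 signal (vertical axis, quantile-normalized) of every probe of the 10 subunits on the 5 arrays (horizontal axis), progenitor subunits above and neuronal subunits below, with 1 array per time point and so no error bars. Hollow points were not detected, the grey line marks the change of slide before Day7, and the Actl6b probe is detected on Day2 and Day7 only, at 5.06 and 9.69.

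Between Day4 and Day7 the position of the actin-related protein showed the largest shift between partners. BAF53A and BAF53B hold this position, and BAF53B is found in neurons only. The Actl6a probe (NM_019673) read 13.30 on ES, then 13.37, 13.47 and 13.38 from Day2 to Day4, and 12.47 on Day7. The first 4 values lie within 0.16 of each other and the Day7 value is the lowest of the 5. The Actl6b probe (NM_031404) read 4.18, 5.06, 2.71, 3.74 and 9.69 in the same order, and was detected on Day2 and Day7 only. Day7 was thus the highest of its values, and the ES, Day3 and Day4 values were not flagged as well above background.

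From Day4 to Day7 the Actl6a signal was 1.88-fold lower (log2 change -0.91, matched by 20.6% of all genes), short of the 2-fold rule. Its sign turned without any normalization, where the change was 0.35 and the median change of all genes 1.06, and relative to that median it was -0.71, against -0.79 in the quantile-normalized data. The rise of Actl6b of at least 5.42 on the log2 scale was matched or exceeded by 142 of 16081 genes, or 0.883%. The change of Actl6b exceeded that of Actl6a by at least 6.32, which is an at least 80.1-fold shift of one against the other, and by at least 45.7-fold from ES to Day7. With normexp background correction the shift from Day4 to Day7 was smaller, at least 4.27 on the log2 scale. Actl6b had no value from ES to Day4, since neither array detected it. Its Day2 reading came from the array with the raised share of detected probes: of 20474 probes that were undetected on both ES and Day3, 65.8% were detected on Day2 against 16.2% on Day4 and 15.1% on Day7, and 29.9% of them differed at least as much between ES and Day2 as Actl6b did.

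The BAF45 position is filled by zinc finger proteins that read histone tails, with BAF45A and BAF45D on the progenitor side. The Phf10 probe (NM_024250) read 12.79 on ES, then 12.99, 12.86 and 12.87 from Day2 to Day4, and 12.07 on Day7. As with Actl6a, the stem cell and embryoid body values lie close together and Day7 is the lowest. The Phf10 signal was 1.75-fold lower on Day7 than on Day4 (log2 change -0.81, matched by 23.8% of all genes), short of the rule. Its sign turned to 0.45 without normalization, with a change of -0.60 relative to the median of all genes there. The Dpf2 probe (NM_011262) read 13.55, 14.05, 14.59, 14.48 and 14.56. Its lowest value was on ES and the values from Day3 on lie within 0.11 of each other. Dpf2 rose 2.02-fold from ES to Day7 (log2 change 1.02, matched by 22.9% of all genes). In the quantile-normalized data the rise came before Day4, at 1.91-fold. Without normalization Dpf2 changed by -0.50 from ES to Day4 (0.56 relative to the median of all genes) and by 1.17 from Day4 to Day7 (0.12). The quantile-normalized change from Day4 to Day7 was 0.09, or -0.15 after a shift to the 75th percentile. After that shift the change from ES to Day7 was 0.31, or 0.66 above the median of all genes, which moved by -0.35.

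The neuronal BAF45 subunits differed from each other. The main Dpf1 probe (NM_013874) read 9.86 on ES, then 8.85, 9.08 and 9.34 from Day2 to Day4, and 12.38 on Day7. The second Dpf1 probe, of the same transcript, read 9.56, 8.66, 8.28, 8.55 and 11.82. Both probes were detected on all 5 arrays, both were lower in embryoid bodies than in stem cells, and both were highest on Day7. From Day4 to Day7 they rose by 3.03 and 3.27 on the log2 scale (8.18-fold and 9.63-fold), and 4.34% of all genes rose as far as the first. From ES to Day7 the rise was 5.73-fold by the first probe and 4.77-fold by the second, smaller than from Day4, and the changes from ES to Day4 were -0.51 and -1.01. Dpf1 exceeded Phf10 in its change from Day4 to Day7 by 3.84 (14.3-fold) and Dpf2 by 2.94 (7.70-fold).

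The Dpf3 probe (NM_058212) read 4.66 on ES, then 8.22, 5.23 and 6.53 from Day2 to Day4, and 6.52 on Day7, and was detected on Day2, Day4 and Day7. The highest value is that of Day2, the array with the raised share of detected probes, where 6.90% of the 20474 probes undetected on ES and Day3 differed at least as much between ES and Day2. Day4 and Day7 were the same within 0.01. Dpf3, known also from heart and skeletal muscle, rose at least 2.87-fold from ES to Day4 and at least 2.85-fold from ES to Day7, and with normexp background correction these bounds fell below 2-fold, to 0.82 and 0.81 on the log2 scale. Its change from Day4 to Day7 exceeded that of Phf10 by 0.79 and fell short of that of Dpf2 by 0.10. Of the neuronal zinc finger subunits Dpf1 thus passed the rule at the last step and Dpf3 before it.

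SS18 and CREST are related proteins that share 1 position of the complex, and CREST is known as a calcium-responsive coactivator in neurons. The main Ss18 probe (NM_009280) read 14.38 on ES, then 14.37, 13.92 and 13.88 from Day2 to Day4, and 13.36 on Day7. The second Ss18 probe, of the same transcript, read 14.84, 13.90, 13.17, 13.28 and 12.80. Both were highest on ES and lowest on Day7, with the larger part of the fall before Day4 by the second probe. Ss18 fell 2.02-fold from ES to Day7 by the main probe (matched by 24.0% of all genes) and 4.13-fold by the second. At the last step alone the changes were -0.52 and -0.48, short of the rule, and 33.6% of all genes fell as far as the main probe. The main probe's change turned to 0.66 without normalization, or -0.40 relative to the median of all genes.

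The Ss18l1 probe (NM_178750) read 7.02 on ES, then 6.80, 7.60 and 7.84 from Day2 to Day4, and 10.73 on Day7. It was detected on all 5 arrays, its Day3 and Day4 values were above those of ES and Day2, and Day7 was the highest. Ss18l1 rose 7.43-fold from Day4 to Day7 (log2 change 2.89, matched by 4.84% of all genes) and 13.1-fold from ES to Day7 (4.16%). Against Ss18 the shift was 10.7-fold from Day4 to Day7 and 26.5-fold from ES to Day7. The direction of Ss18l1 from ES to Day4 was 0.82 and turned to -0.06 without normalization, where the median of all genes moved by -1.06.

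**Figure D2:**
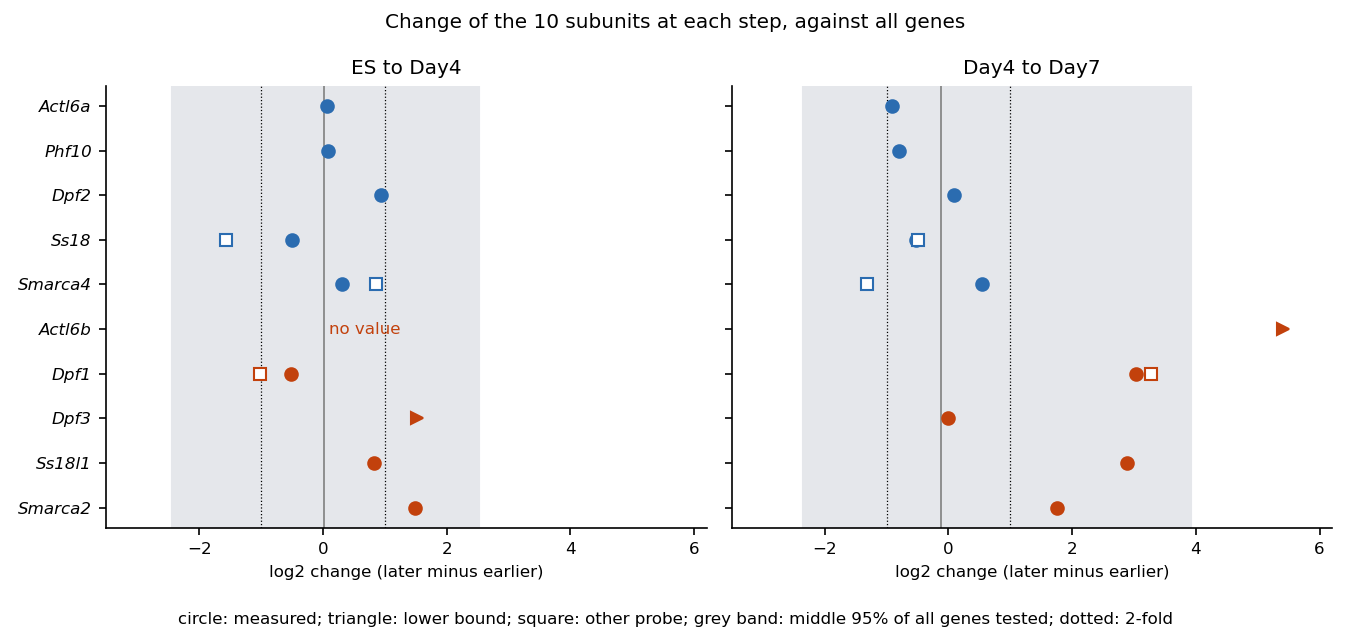
Log2 change (horizontal axis, later minus earlier) of the 10 subunits from ES to Day4, left, and from Day4 to Day7, right, with filled circles for measured changes, triangles for lower bounds and squares for the second probe. The grey band holds the middle 95% of all genes and the dotted lines mark 2-fold, and at the right panel Actl6b alone, at 5.42 or more, lies outside the band.

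BRG1 and BRM are both able to drive the complex, and BRG1 is the form known to be required in stem cells. The main Smarca4 probe (NM_001174078) read 15.68 on ES, then 15.74, 15.92 and 16.00 from Day2 to Day4, and 16.55 on Day7. The second Smarca4 probe, whose accession (NM_001174079) is that of another transcript of the gene, read 11.28, 11.27, 11.77, 12.14 and 10.82. The probes moved alike up to Day4 and then apart, since Day7 is the highest value of the first and the lowest of the second. From Day4 to Day7 the main probe changed by 0.55 and the second fell by 1.32 on the log2 scale (2.50-fold). From ES to Day7 the changes were 0.86 and -0.46, and that of the main probe turned to -0.17 after a shift to the 75th percentile, or 0.18 relative to the median of all genes. The direction of Smarca4 therefore depends on the probe at the last step, and neither probe was 2-fold below its ES level on Day7.

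The Smarca2 probe (NM_026003) read 6.97 on ES, then 6.72, 8.05 and 8.47 from Day2 to Day4, and 10.23 on Day7, detected on all 5. Day3 and Day4 were above ES and Day2, and Day7 above all others. Smarca2 rose 2.82-fold from ES to Day4, between arrays of 1 slide (0.64 on the log2 scale without normalization, or 1.70 relative to the median of all genes), 3.39-fold from Day4 to Day7 and 9.56-fold from ES to Day7. In all genes, 9.93% rose as far from Day4 to Day7 and 5.50% from ES to Day7. The change of Smarca2 exceeded that of the main Smarca4 probe by 1.21 from Day4 to Day7 and by 2.39 from ES to Day7, and that of the second probe by 3.09 and 3.72.

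Over the earlier step, from ES to Day4, 0 of 5 progenitor subunits rose or fell 2-fold, and 2 of the 4 neuronal subunits with a value rose, Dpf3 and Smarca2. Of 15835 genes with a value at this step, 15.4% rose and 14.2% fell. The median log2 change was 0.08 for the progenitor and 1.16 for the neuronal subunits, beside 0.01 over all genes. Ss18 fell 2-fold at this step by its second probe (-1.56) and after a shift to the 75th percentile (-1.02). Ss18l1 exceeded Ss18 by 1.32, less than at the last step, and Dpf1 changed by -0.59 relative to Phf10. Smarca2 exceeded the main Smarca4 probe by 1.18, beside 1.21 at the last step. Dpf3 exceeded Phf10 by at least 1.44 and Dpf2 by at least 0.59, or by 0.74 and -0.09 with normexp background correction. In the quantile-normalized data Smarca2 and Dpf3 thus passed the rule by Day4, which neither did without normalization. Actl6b, Dpf1 and Ss18l1 passed it at the last step, and Smarca2 passed it there again, at 3.39-fold.

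Over the whole course from ES to Day7, 5 of 5 neuronal subunits rose at least 2-fold, where 23.2% of 15835 genes rose. Of the progenitor subunits 1 of 5 fell, Ss18, and 1 rose, Dpf2, where 24.4% of all genes fell. Their medians were 3.26 and -0.72, beside -0.07 over all genes. After a shift to the 75th percentile 3 of 5 progenitor subunits fell, namely Ss18 (-1.68), Actl6a (-1.35) and Phf10 (-1.15), and 0 rose, where 32.3% of all genes fell and 20.8% rose on that scale. All 4 progenitor to neuronal positions shifted towards the neuronal partner from ES to Day7, by at least 5.52 on the log2 scale for Actl6b against Actl6a, 4.73 for Ss18l1 against Ss18, 3.24 for Dpf1 against Phf10 and 2.39 for Smarca2 against Smarca4. The smallest shifts were those within the zinc finger subunits that include Dpf2, at 2.83-fold for Dpf1 and at least 0.49 on the log2 scale for Dpf3, or -0.23 with normexp background correction.

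**Figure D3:**
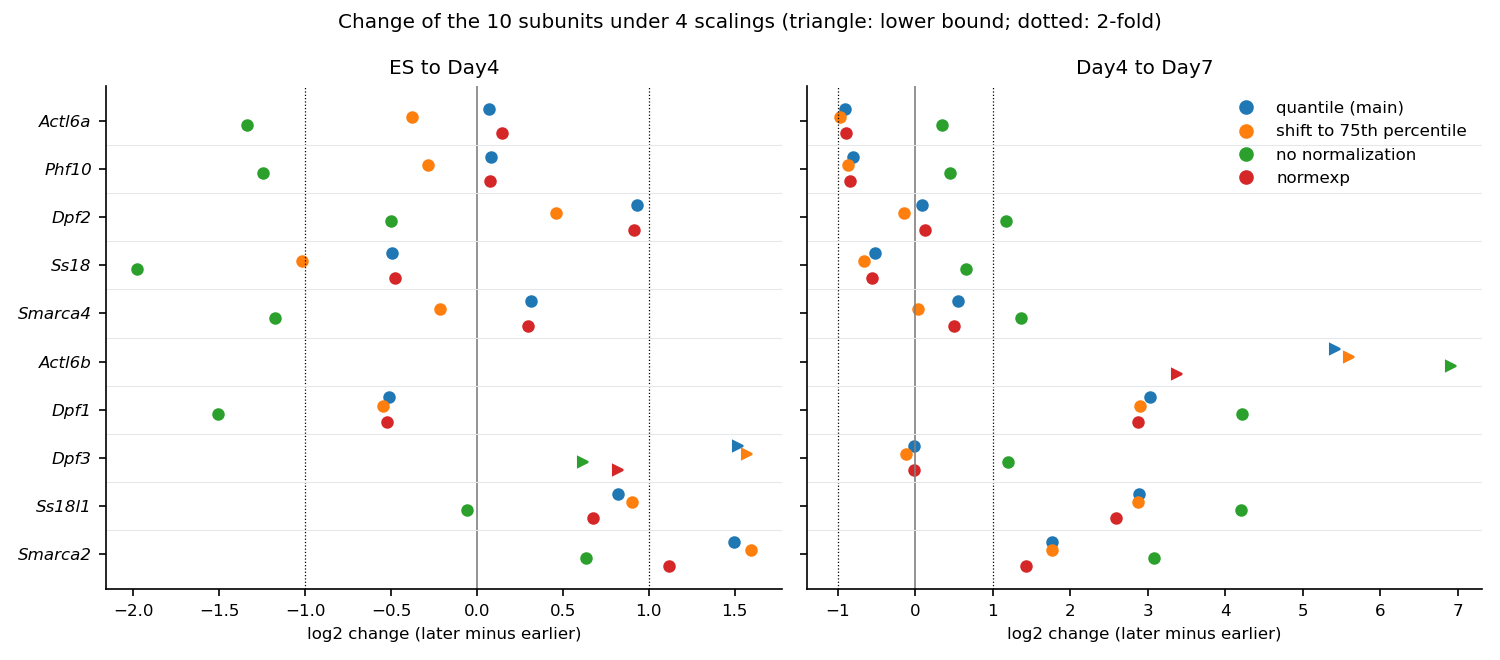
Log2 change (horizontal axis) of the 10 subunits from ES to Day4, left, and Day4 to Day7, right, under quantile normalization, a shift to the 75th percentile, no normalization and normexp background correction, with triangles for lower bounds. Actl6b, Dpf1, Ss18l1 and Smarca2 lie right of the 2-fold line from Day4 to Day7 under all 4, while Actl6a, Phf10 and Ss18 change sign without normalization, where all genes shifted by a median of 1.06.

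The 21 other subunits of BAF and PBAF complexes that were listed all had values. From Day4 to Day7, 5 rose and 1 fell (median 0.21), where 17.8% of all genes rose and 18.1% fell. From ES to Day7, 4 rose and 1 fell (median 0.39), where 23.2% of all genes rose and 24.4% fell. The core member Smarcb1, with 1 probe, did not pass the rule in any of the 3 comparisons. Smarce1 and Arid1a did not pass it by the probe that stands for the gene, but the second Smarce1 probe rose by 1.15 from Day4 to Day7 and by 1.83 from ES to Day7, and the second Arid1a probe changed by 1.05 from ES to Day4 and by -1.20 from Day4 to Day7. Smarcc2, which encodes the scaffold BAF170, was the largest riser from ES to Day7. It read 6.45, 6.95, 9.06, 9.32 and 11.17 in order, a rise of 26.4-fold from ES to Day7, of which 7.30-fold came before Day4. Its partner scaffold Smarcc1 (BAF155) changed by 0.80, and its 3 probes ranged from -1.26 to 0.80. Smarcd3, which encodes BAF60C, read 7.38, 7.12, 9.78, 10.44 and 11.36. It rose 8.35-fold from ES to Day4 and 15.7-fold from ES to Day7, and its relatives Smarcd1 and Smarcd2 passed the rule in none of the 3 comparisons, although Smarcd2 came within rounding of it from Day4 to Day7, with a log2 change of -0.999. Both Smarcc2 and Smarcd3 stepped up between Day2 and Day3, like Smarca2, and before the last step.

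The zinc finger transcription factors Bcl11a and Bcl11b, also named BAF100A and BAF100B, fell and rose again by the probe that stands for each gene. Bcl11a read 10.10 on ES and again on Day2, dropped to 6.17 and 5.53 on Day3 and Day4, and returned to 10.87 on Day7. It fell 23.7-fold from ES to Day4 and rose 40.4-fold from Day4 to Day7. Bcl11b read 7.33, 6.37, 4.71, 3.98 and 8.17, was undetected on Day3 and Day4, fell at least 8.35-fold from ES to Day4 and rose at least 14.9-fold from Day4 to Day7. Neither differed 2-fold between ES and Day7 by the probe that stands for the gene. The second Bcl11b probe gave no fold from ES to Day4, so it does not show the fall, and it rose by at least 2.97 from ES to Day7. Bcl7a rose 2.41-fold from Day4 to Day7 and 3.87-fold from ES to Day7, and Bcl7c fell 2.48-fold from Day4 to Day7 after a 2.03-fold rise from ES to Day4. Brd9, of the non-canonical complex, rose 2.35-fold from ES to Day7. Arid2, of PBAF, fell 3.52-fold from ES to Day7, and its 3 probes ranged from -1.82 to -1.41. Bicral completes the 5 that rose from Day4 to Day7, at 1.17 by 1 probe and -0.52 by the other, and was named after its values were seen.

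**Figure D4:**
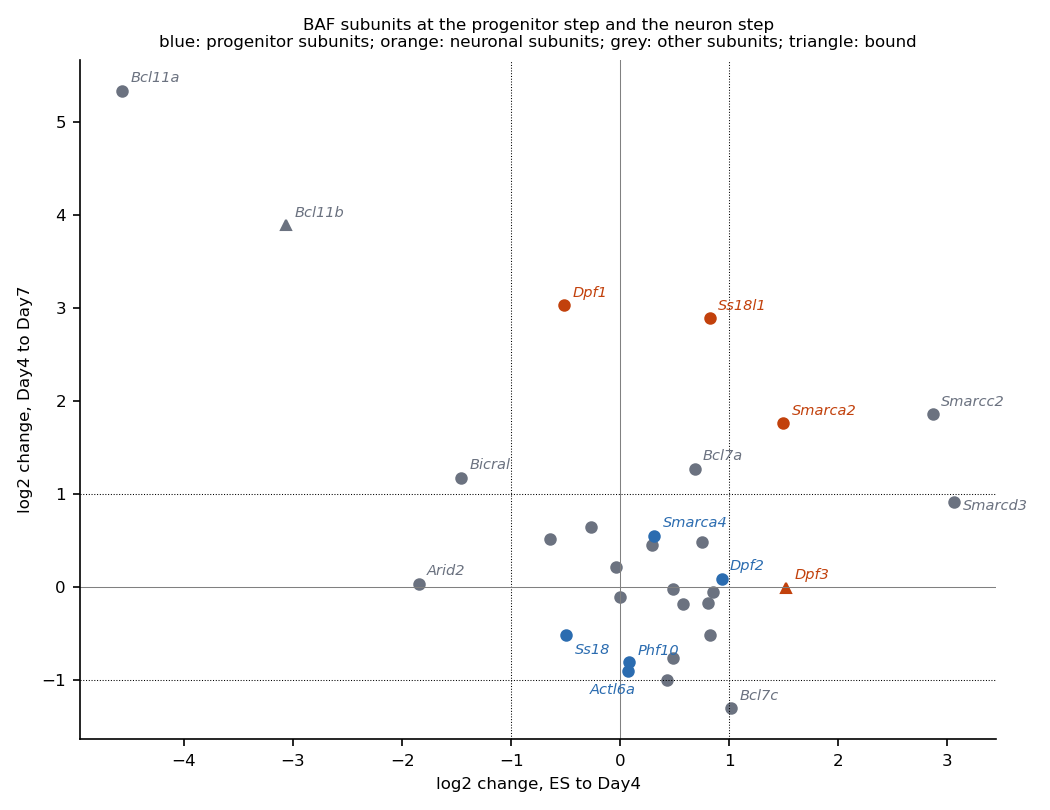
Log2 change from ES to Day4 (horizontal axis) against that from Day4 to Day7 (vertical axis) of the progenitor subunits (blue), the neuronal subunits (orange) and the 21 other subunits (grey), with dotted lines at 2-fold and triangles where a change is a bound. Actl6b is not drawn because it had no value from ES to Day4, Bcl11a and Bcl11b lie at upper left, and Smarcc2 and Smarcd3 at right.

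Actl6a is also a subunit of the INO80 and TIP60 remodellers, so these were set beside it. Of 20 subunits with a value, 1 rose and 7 fell from ES to Day7 (median -0.38), where 24.4% of all genes fell, and 1 rose and 2 fell from Day4 to Day7 (median -0.22), where 18.1% fell. Ino80c fell 6.85-fold from ES to Day7. The AAA ATPases Ruvbl1 and Ruvbl2, shared by both complexes, fell 2.66-fold and 3.11-fold, and Uchl5, Yy1 and Ing3 fell 2.68-fold, 2.65-fold and 2.49-fold, with 0.03 by the second Ing3 probe. Yeats4 fell 2.55-fold from Day4 to Day7, and Epc1 rose 3.37-fold from ES to Day7, with a second probe at 0.44. ISWI and CHD remodellers moved both ways. Of 17 with a value, 4 rose and 4 fell from Day4 to Day7, beside the same 17.8% and 18.1% of all genes. Smarca1, the ISWI ATPase SNF2L known from differentiated neurons, rose 7.38-fold, and Chd3, Baz2b and Chd5 rose by 1.58, 1.43 and 1.16 on the log2 scale. Cecr2, Chd1, Baz1a and Baz1b fell 4.39-fold, 3.39-fold, 2.79-fold and 2.44-fold. Chd3 rose 12.5-fold over the whole course. Chd7 had no matched probe.

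REST and the microRNAs miR-124 and miR-9 are known as regulators upstream of this exchange, and PTB proteins act on neuronal splicing. Rest read 13.52 on ES, then 12.74, 12.31 and 12.39 from Day2 to Day4, and 10.67 on Day7. It fell 7.21-fold from ES to Day7 and 3.28-fold from Day4 to Day7, and both of its probes fell, by 1.71 and 1.95 on the log2 scale at the last step. Of the 11 genes in the list of REST and its partners, 0 rose and 3 fell from Day4 to Day7, where 18.1% of all genes fell, the other 2 being Hdac1 (2.20-fold) and the phosphatase gene Ctdsp2 (3.26-fold). From ES to Day7, Sin3a fell 2.23-fold, and Hdac2 and Ctdspl rose 2.17-fold and 2.18-fold. Ptbp1, the splicing repressor of non-neuronal cells, fell 2.75-fold from Day4 to Day7 and its neuronal relative Ptbp2 rose 2.39-fold. Mir124-2hg, the host transcript of a miR-124 precursor and chosen after its values were seen, was undetected on ES and Day2 and read 6.71 on Day3, 8.85 on Day4 and 10.06 on Day7, which is at least 14.4-fold above ES by Day4. Mature miRNAs were not measured on these arrays.

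The genes with the most similar profiles over the 5 arrays were found by the root mean square distance between log2 levels, each gene centred on its own mean, among genes detected on the same arrays, with an undetected level raised to the dimmest detected signal of its array where it lay below that. For Actl6a the nearest of 13466 genes were Wdyhv1 (0.02), the cyclin gene Ccna2 (0.04) and Mrm2 (0.04). For Phf10 they were Nudc (0.03), Alg10b (0.04) and the chromatin protein gene Hmgb2 (0.04). For Dpf1 they were the prion protein gene Prnp (0.11), Rem2 (0.11) and Kcnu1 (0.13). For Actl6b, with 338 genes detected on Day2 and Day7 only, the 3 undetected levels of Actl6b and of the genes named here were all set in this way, so their distances reflect Day2 and Day7 only. The nearest were the protocadherin gene Pcdh7 (0.07), the glycine receptor subunit gene Glra2 (0.11) and Lrrc4c (0.21). The cell cycle list was lowest on Day7, as were Actl6a and Phf10. Its median log2 change from Day4 was -1.49, beside -0.91 and -0.81 for these 2. The summed signal of that list lay between 18.13 and 18.21 on the log2 scale on the 4 arrays up to Day4 and at 16.79 on Day7, with 12 of 12 genes detected on every array. Single genes of the list moved before Day4, such as Mki67 (1.05) and Cdk1 (-0.86). The summed signal of the pan-neuronal list, which stepped up on Day7 as Actl6b, Dpf1 and Ss18l1 did, lay between 14.38 and 14.84 up to Day4 and at 19.13 on Day7. The summed signal of the floor plate list rose from 11.59 on Day4 to 15.64 on Day7. The part of cell division, of the share of neurons or of other cells in the changes of the subunits was not tested.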

How the data were processed

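RNA of 5 samples, 1 per time point, had been hybridised to Agilent mouse 8x60K arrays. The authors deposited scanner files with the intensity of each spot, background-subtracted and detrended in Feature Extraction 10.5.1, per the submitters' processing notes. Their deposited log2 table equals the log2 median spot signal minus the array's 75th percentile for 99.5% to 99.6% of probes within 0.01. Control and outlier spots were left out, spots of a probe averaged on the log2 scale and arrays quantile-normalized with limma 3.58.1 in R 4.3.3, since the study names Quantile analysis. Other steps used Python 3.11.15, numpy 2.4.6, pandas 2.3.3 and matplotlib 3.10.9. Probes were named through RefSeq accessions of GRCm38.p6 (26300 of 55681 matched). The brightest probe by mean stood for its gene. A probe that failed the flag for well above background on one array was set there to its own value or to the dimmest flagged signal, whichever was higher, which gives bounds ("at least"). Probes below background on both arrays gave no value. The counting steps were tested on simulated data. With 1 array per time point, precision is limited by their number. The median SD between repeat spots, on 432 probes, was 0.06 to 0.11 on the log2 scale, and each member probe had 1 spot. Named genes were all members, and from the other lists those past 2-fold from ES to Day7 or Day4 to Day7, at most 8 a list, with Rest, Ptbp1 and Ptbp2. Smarcb1, Smarcc1, Smarcd1, Smarcd2, Smarce1, Arid1a, Bicral and Mir124-2hg were named outside this rule, after their values were seen. Members and lists were chosen with earlier results of these data known. Alternatives were other scalings, background correction, detection rules, probes and thresholds of 1.5-fold and 4-fold.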

Additional observations from a re-analysis of the deposited data

How the results depend on the processing

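Of 11 alternatives, 9 were read for direction and 2 were thresholds. The 9 were not independent. Requiring detection on both arrays only left values out. The other detection flag and no filter kept measured changes and could only enlarge a rise given as a bound. These settings could not turn a change that passed 2-fold. The deposited values nearly repeated the percentile shift. Differences between partners were nearly the same after that shift, with the deposited values and without normalization. The other probe applied to 3 members only. With these limits, none of the 9 turned a member's change, or a difference between partners, that passed 2-fold in the quantile-normalized data. Values short of 2-fold there did turn, among them Smarca4 from Day4 to Day7, at -1.32 by its other probe and 1.36 without normalization, and Dpf3 against Dpf2 from ES to Day7. No paired analysis was possible because no time point had a second array. A block for slide was not run and could not be fitted, since the second slide held Day7 only. Normexp was run on the median spot signals.

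After a shift to the 75th percentile, and equally with the authors' deposited log2 values, 1 progenitor subunit fell from ES to Day4, 3 fell from ES to Day7 and 0 rose (18.6% and 32.3% of all genes fell in these comparisons after the shift), and the shifts from ES to Day7 were at least 6.19 for Actl6b against Actl6a, 5.47 for Ss18l1 against Ss18, 3.53 for Smarca2 against Smarca4 and 1.15 for Dpf3 against Dpf2. The same 4 shifts held without normalization, which moves both partners alike. Without normalization, where the median of all genes moved by -1.06 from ES to Day4 and 1.06 from Day4 to Day7, 4 progenitor and 1 neuronal subunit fell and 0 neuronal subunits rose from ES to Day4, 2 progenitor subunits rose from Day4 to Day7 and 0 rose from ES to Day7. Of all genes 52.7% fell and 4.66% rose from ES to Day4, and 52.1% rose and 3.33% fell from Day4 to Day7. Among other BAF subunits 7 then fell from ES to Day4 (median -0.79), and 16 rose and 0 fell from Day4 to Day7 (median 1.35). With normexp, the shifts of Actl6b against Actl6a were at least 4.27 from Day4 to Day7 and 4.13 from ES to Day7, those from ES to Day7 were 1.57 for Dpf3 against Phf10, -0.23 for Dpf3 against Dpf2 and 1.74 for Smarca2 against Smarca4, and 1 neuronal subunit rose from ES to Day4, as did 11.4% of all genes.

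Without a filter on dim probes, or with another detection flag, Actl6b exceeded Actl6a by 6.34 from ES to Day7. Where detection on both arrays was required, 1 of 3 neuronal subunits with a value rose from ES to Day4 and 3 of 3 from ES to Day7, beside 13.9% and 20.9% of all genes. With the mean over probes, Smarca2 exceeded Smarca4 by 2.15 from Day4 to Day7 and 3.06 from ES to Day7, 1 progenitor subunit fell from ES to Day4, and 2 other BAF subunits fell from ES to Day4 and 2 from ES to Day7. With the other probe, these shifts were 3.09 and 3.72, Ss18l1 exceeded Ss18 by 5.76 from ES to Day7, 1 progenitor and 1 neuronal subunit fell from ES to Day4, and 1 progenitor subunit fell from Day4 to Day7. Other BAF subunits then fell in 2 cases from ES to Day4, 4 from Day4 to Day7 and 3 from ES to Day7, and 7 rose from ES to Day7. With the mean and with the other probe, 15.2% to 23.1% of all genes rose and 13.0% to 24.8% fell in the 3 comparisons.

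At 1.5-fold, 1 progenitor subunit rose from ES to Day4, 2 fell from Day4 to Day7, and 3 fell and 2 rose from ES to Day7, while 8 other BAF subunits rose from ES to Day4, 3 fell from Day4 to Day7 and 9 rose from ES to Day7. Of all genes 26.8% rose from ES to Day4, 31.1% fell from Day4 to Day7, and 31.4% rose and 35.5% fell from ES to Day7. At 4-fold, 0 neuronal subunits rose from ES to Day4 and 0 progenitor subunits rose or fell from ES to Day7, while 2 other BAF subunits fell from ES to Day4, and 2 rose and 0 fell over each of the other comparisons, beside 4.31% to 11.8% of all genes that rose and 4.01% to 8.37% that fell.

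Over all genes, 2440 rose and 2253 fell from ES to Day4, 2862 rose and 2918 fell from Day4 to Day7, and 3676 rose and 3867 fell from ES to Day7. Without normalization these counts were 738, 8341, 8386 and 536 over the first 2 comparisons. At 1.5-fold, 4243 rose and 3860 fell from ES to Day4, and from Day4 on 4995 fell. At 4-fold the counts were 683, 635, 1389, 701, 1861 and 1326 in the same order. Of the genes that changed, 52.0%, 49.5% and 48.7% rose in the 3 comparisons, 8.13%, 94.0% and 53.4% without normalization, and 43.7%, 44.0% and 39.2% after the shift to the 75th percentile. What these data limit is the number of arrays, 1 per time point, the slide of Day7, and the signal of the probes of Actl6b and Dpf3 near background, where changes are bounds.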
